A study of Arabidopsis thaliana with 8 samples.

Results

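In 649 pairs of overlapping m6A peaks, both values of an ALKBH10B mutant of Arabidopsis thaliana lay above both wild-type values by at least 1 on the log2 scale. These pairs lay in 642 genes. They were chosen from 13876 pairs, in 10607 genes, made of 1 peak from each genotype's list in the same gene that overlapped by at least 1 base and were each other's largest overlap. A pair was kept where the lower of the 2 mutant log2 enrichments exceeded the higher of the 2 wild-type ones by 1 or more, a distance called the gap below. The enrichments of both genotypes therefore chose the pairs, and their differences between genotypes are given as a description without a test.

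The mutant seedlings were atalkbh10b-1, homozygous for 1 lesion in the Columbia-0 background, and the wild-type seedlings were Columbia-0. Both were whole seedlings aged 14 days, with no treatment given in the labels, and the mutant stands for 1 allele. Each genotype had 2 libraries of poly(A) RNA fragments that an m6A antibody had bound and 2 libraries of input RNA, 8 in all, labelled as biological replicates. The authors deposited 1 peak list per genotype, with 20696 peaks in 12443 genes for the mutant and 20521 peaks in 12939 genes for wild type, and with a log2 enrichment of pull-down over input for each replicate.

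N6-methyladenosine (m6A) is a methyl mark that a complex of methyltransferases writes on adenosines of messenger RNA. Proteins with a YTH domain read the mark, and demethylases of the AlkB family, to which ALKBH10B belongs, can remove it. The mark is known to affect the stability, processing and translation of transcripts, and in plants it is found mostly near the stop codon and in the untranslated region after it.

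Counts of pairs in the 2 directions were close. The 649 pairs made up 4.68% of all pairs, and 577 pairs (4.16%), in 575 genes, met the same rule with the mutant lower. At any distance, both mutant values were above both wild-type values in 1904 pairs (13.7%) and below both in 2085 (15.0%). Wider gaps were more frequent with the mutant higher than with the mutant lower: a gap of 2 or more was found in 288 pairs against 193, one of 3 or more in 156 against 79, and one of 6 or more in 15 against 8. The mutant mean was above the wild-type mean in 6827 of all pairs (49.2%).

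Limma's moderated test over all 13876 pairs, with 2 values per genotype and Benjamini-Hochberg adjustment, called 0 pairs at an adjusted p under 0.05, with 1 as the smallest adjusted p. Without adjustment, 491 pairs had a p under 0.05, 286 of them higher and 205 lower in the mutant. No single pair described here was therefore shown to differ beyond the spread between these libraries.

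**Figure D1:**
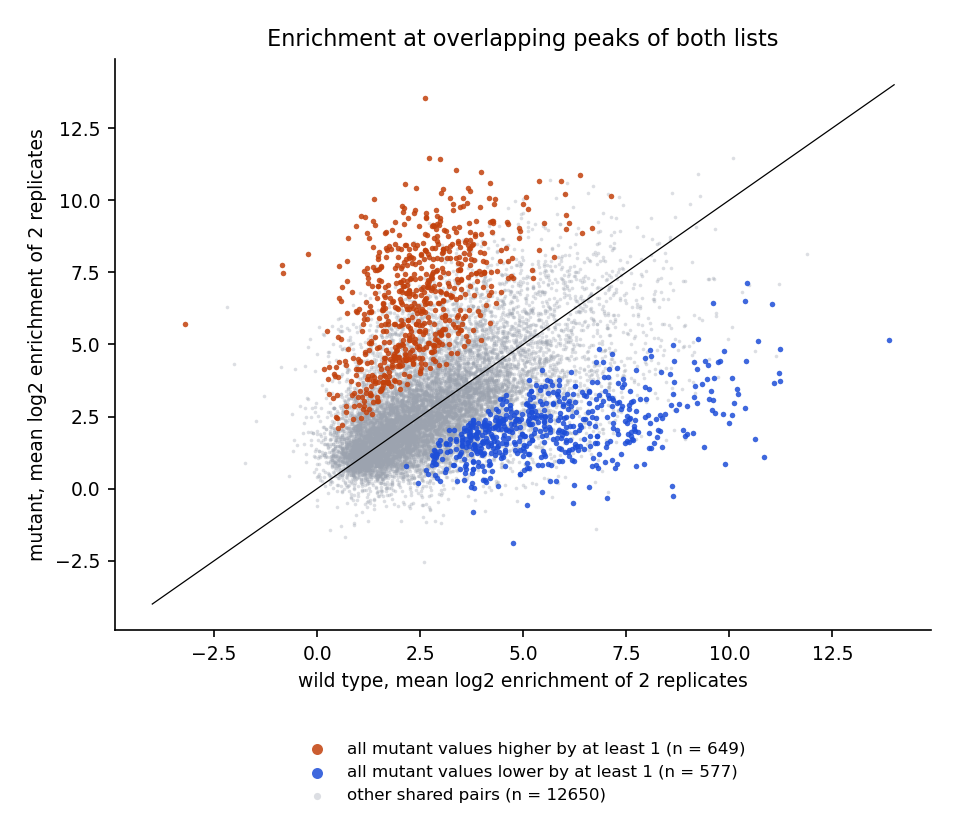
Mean log2 enrichment of pull-down over input in the mutant (vertical axis, 2 replicates) against wild type (horizontal axis, 2 replicates), 1 point per pair of overlapping peaks. The 649 pairs with all mutant values higher by at least 1 are red, the 577 pairs with all mutant values lower by at least 1 are blue, the other 12650 are grey, and the line marks equal means. The red pairs reach a mean of up to 13.54 in the mutant and sit at a median mean of 2.36 in wild type, close to the 2.62 of all pairs in wild type.

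Across the 649 pairs, log2 enrichment had a median of 6.01 in mutant replicate 1 (1.93 to 13.59) and 6.57 in mutant replicate 2 (2.08 to 13.73). The wild-type medians were 2.44 in replicate 1 (-8.62 to 8.07) and 2.47 in replicate 2 (-2.29 to 7.63). Over all 13876 pairs the medians of the 4 columns lay between 2.44 and 2.62. The rule thus gave pairs with high values in the mutant and ordinary ones in wild type. It gave the reverse in the 577 pairs with the mutant lower. Their medians were 5.01 and 5.04 in wild type and 2.18 and 2.06 in the mutant. Of the 649 pairs, both mutant values reached 4 in 511 and 8 in 68. Both wild-type values reached 1 in 459 of the 649 (70.7%, against 75.8% of all pairs). The mean difference, mutant minus wild type, had a median of 3.83 (quartiles 2.60 and 5.17), and it reached 2 in 588 pairs, 4 in 308 and 6 in 93.

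Replicates of 1 genotype were often far apart in these pairs. The median difference between replicates was 1.49 in the mutant and 1.17 in wild type, against 1.64 and 1.27 in pairs with neither rule met. Both genotypes had replicates within 1 of each other in 110 pairs and within 0.5 in 36. The lower wild-type value was below 0 in 68 of the 649 pairs (10.5%, against 8.38% of all pairs). An extreme case was PAP10 (AT2G16430), a secreted acid phosphatase gene of the phosphate starvation response, which had 5.84 and 5.59 in the mutant and -8.62 and 2.20 in wild type. Its 2 wild-type values were over 10 apart.

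The widest gap of all pairs, 10.77, was found in AT4G14000, a gene without a symbol in the annotation used. Its only peak, at bases 938 to 1096 in the mutant list and 933 to 1100 in the wild-type list, had 13.59 and 13.50 in the mutant and 2.52 and 2.72 in wild type. Positions are bases along each gene as the lists count them. The gene overlaps another one in the annotation, so reads of the 2 could be mixed unless strand was used.

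Among genes with an entry in the annotation's symbol column, the 12 widest gaps ran from 7.91 to 4.80. CDKG1, NLE and WAPL2, which that table names only as synonyms, had gaps of 6.33, 6.76 and 6.81. NF-YC9 (AT1G08970) encodes the C subunit of nuclear factor Y, which binds CCAAT elements and takes part in flowering by day length. At its first peak, bases 34 to 147 in the mutant list, it had 9.25 and 9.59 in the mutant and 0.99 and 1.34 in wild type. AGL16 (AT3G57230), known from the MADS-box family as a repressor of flowering and a regulator of stomata, had 12.47 and 10.38 in the mutant and 3.45 and 2.52 in wild type at its single peak, bases 852 to 1060. IAA26 (AT3G16500), an Aux/IAA repressor of auxin response, had 8.82 and 9.05 in the mutant and 2.86 and 3.41 in wild type. In all of them the higher wild-type value stayed more than 5 below the lower mutant value.

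Enzymes and subunits of complexes were others of the 12. PSF1 (AT1G80190), a subunit of the GINS complex that unwinds DNA with the replicative helicase, had 11.63 and 9.47 in the mutant and 2.16 and 2.12 in wild type. GLCAK (AT3G01640), a glucuronokinase that feeds nucleotide sugars for the cell wall, had 8.50 and 9.44 in the mutant and 2.20 and 1.42 in wild type. INDH (AT4G19540), an assembly factor of mitochondrial complex I, had 9.68 and 8.49 in the mutant and -0.20 and 2.11 in wild type. The replicates of PSF1 were over 2 apart in the mutant and close in wild type, and those of INDH were over 2 apart in wild type. CLS (AT4G04870) makes the mitochondrial lipid cardiolipin, and had 8.18 and 7.46 in the mutant and 2.58 and 2.03 in wild type. XDH2 (AT4G34900), a xanthine dehydrogenase of purine breakdown, had 8.16 and 11.12 in the mutant and 3.36 and 3.26 in wild type. MTM1 (AT3G10550), a phosphoinositide phosphatase, had 9.26 and 8.66 in the mutant and 3.46 and 2.67 in wild type. The others of the 12, TOR1, D2HGDH and the SUMO protease gene ULP1D, are described further on. Of the 12, INDH, MTM1, CLS, D2HGDH and ULP1D overlap other genes in the annotation. The bases shared by the 2 peaks made up 44.2% of the mutant and 56.7% of the wild-type peak in IAA26. These shares were 49.0% and 76.0% in GLCAK, 50.3% and 72.7% in INDH, and 68.0% and 38.2% in CLS.

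Where the borders of the 2 peaks also coincided, with at least 80% of each peak overlapped, the values of both genotypes describe nearly the same stretch. This held for 304 of the 649 pairs (46.8%, against 46.2% of all pairs). Among them AGL16 had the widest gap of genes with an entry in the symbol column, 6.94. TOR1 (AT4G27060), a microtubule-associated protein gene whose loss twists organs, had 9.27 and 10.18 in the mutant and 3.24 and 0.95 in wild type. D2HGDH (AT4G36400), a mitochondrial 2-hydroxyglutarate dehydrogenase gene, had 7.77 and 10.21 in the mutant and 2.84 and 2.91 in wild type. SQN (AT2G15790) encodes a cyclophilin that assists ARGONAUTE1, and had 9.38 and 8.72 in the mutant and 2.43 and 4.20 in wild type. SDP6 (AT3G10370), a glycerol-3-phosphate dehydrogenase used when seed oil is broken down, had 9.13 and 10.64 in the mutant and 2.03 and 4.57 in wild type. EDA25 (AT1G72440), required for female gametophyte development, had 7.67 and 8.75 in the mutant and 0.05 and 2.97 in wild type. The wild-type replicates of TOR1, SDP6 and EDA25 and the mutant replicates of AGL16 and D2HGDH were more than 2 apart. Identical borders occurred in 12 pairs, among them that of RDR6.

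The closest replicates went with small and large differences alike. Of the 8 pairs with the least difference within either genotype, 6 had gaps under 2. OLI2 (AT5G55920), a nucleolar protein gene of ribosome biogenesis, had 4.36 and 4.28 in the mutant and 3.12 and 3.14 in wild type. LLG1 (AT5G56170), a chaperone of the receptor kinases FERONIA and FLS2, had 2.56 and 2.63 in the mutant and 1.40 and 1.25 in wild type. PSY (AT5G17230), which encodes phytoene synthase, the first enzyme of carotenoid synthesis, had 3.99 and 4.18 in the mutant and 2.38 and 2.59 in wild type. The exceptions were a cytokinin response gene and an epidermal one. RR1 (AT3G16857), a response regulator that activates cytokinin targets, had 7.72 and 7.94 in the mutant and 3.45 and 3.39 in wild type. ALE2 (AT2G20300), a receptor-like kinase gene of epidermis and cuticle formation, had 8.94 and 8.70 in the mutant and 3.94 and 3.69 in wild type. TRM15, CJD1 and the plastid malate dehydrogenase gene MDH are the other 3.

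**Figure D2:**
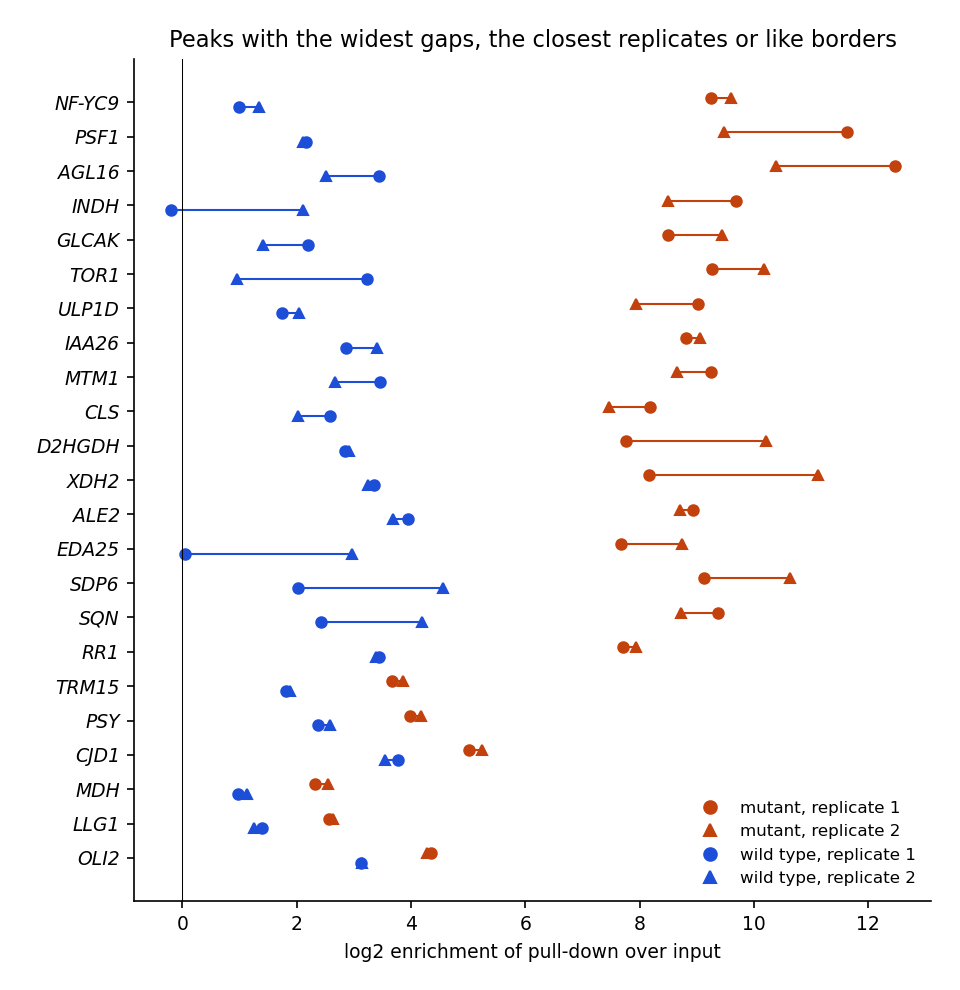
Log2 enrichment of pull-down over input (horizontal axis) at 23 peaks, 1 gene per row, in order of the gap. Circles are replicate 1 and triangles replicate 2, red for the mutant and blue for wild type, and a line joins the 2 replicates of a genotype. The lower mutant value lies above the higher wild-type value in every row by the rule, from NF-YC9 (gap 7.91) at the top to OLI2 (gap 1.14) at the bottom.

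At the threshold the lower mutant value stood 1 above the higher wild-type value. Just inside it, DAYSLEEPER (AT3G42170), a transposase-like gene required for development, had 7.46 and 5.67 in the mutant and 4.67 and 0.58 in wild type, and AFH14 (AT1G31810), a formin gene, had 5.51 and 8.96 in the mutant and 4.51 and 2.45 in wild type. Just outside it, VAB3 (AT1G20260), a subunit of the vacuolar proton pump, had 2.33 and 2.77 in the mutant and 1.13 and 1.33 in wild type. AT2G33220, also outside, had 5.89 and 4.46 in the mutant and 2.03 and 3.46 in wild type. BCDH BETA1 and AT2G18400 also lay just inside, and AT2G16380 and AT3G20280 just outside, all with a gap of 1.00 when rounded.

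The pairs spanned high and low enrichment. ARP7 (AT3G60830), a nuclear actin-related protein gene, was among the 4 highest wild-type means of genes with a symbol, with 8.04 and 9.65 in the mutant and 6.53 and 6.30 in wild type. PP7, a phosphatase gene, and Fh5, a formin gene, were also among them. At the other end, SLP2 (AT4G34980), a subtilisin-like protease gene, had 2.10 and 2.08 in the mutant and -0.02 and 1.06 in wild type. XTH31, a cell-wall xyloglucan hydrolase gene, and GC5, a golgin gene, were also among the lowest. A peak could thus meet the rule at a level that was below the median of all pairs in the mutant and in wild type alike.

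The mutant peak started at a median of base 1358, against 1472 in the 577 pairs with the mutant lower and 1209.5 in pairs that met neither rule. It was the only mutant-list peak of its gene in 312 pairs (48.1%, against 40.5% of all pairs). In genes with more than 1 peak it was the last in 69.1%, against 85.1% of the pairs with the mutant lower and 54.7% of all pairs. It was the first in 23.4%, against 8.91% and 30.4%. Both directions thus had more last and fewer first peaks than all pairs had, and first peaks were fewest where the mutant was lower.

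Of the 7 classes of position plotted, the first 200 bases of genes had the most unequal counts. There lay 65 pairs with the mutant higher and 12 with the mutant lower, of 1533 pairs (4.24% and 0.783%). Pairs with the mutant higher were thus near their share of all pairs (4.68%) there. The inequality came from few pairs with the mutant lower, which made up 4.16% of all pairs. Beyond 200 bases the counts were 584 and 565 of 12343 pairs (4.73% and 4.58%). At any distance, both mutant values were above both wild-type values in 246 of the 1533 pairs (16.0%) and below both in 135 (8.81%). The border of 200 bases was chosen after these data were seen, and with 100 or 300 bases the counts were 45 against 9 and 70 against 16. With at least 80% of each peak overlapped they were 21 against 6.

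The same enrichments were also counted by library over all 1533 early pairs, those that met the rule included, so the counts are no separate support. A log2 enrichment of 4 or more was reached by 13.9% and 15.6% of them in mutant replicates 1 and 2, against 7.76% and 8.74% in wild-type replicates 1 and 2. The genotypes did not overlap there. Beyond 200 bases the shares were 25.5% and 26.7% in the mutant and 23.9% and 25.8% in wild type and did overlap. The 90th percentiles of the early pairs were 4.8 and 5.2 in the mutant and 3.6 and 3.7 in wild type. Beyond 200 bases they were 6.4 and 7.0 in the mutant and 5.7 and 5.8 in wild type. At this percentile the genotypes overlapped in neither class, so high mutant values were not particular to the early pairs. The medians of the early pairs were 1.91 and 1.69 in the mutant and 1.69 and 1.74 in wild type. At the medians the genotypes thus overlapped, unlike at the high values, and neither was tested. An exact permutation test of 2 against 2 libraries cannot go below p = 0.333, and none was used. Without mutant replicate 1 the early counts were 266 with the mutant higher and 228 with it lower, a ratio nearer to equal than without any other replicate.

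**Figure D3:**
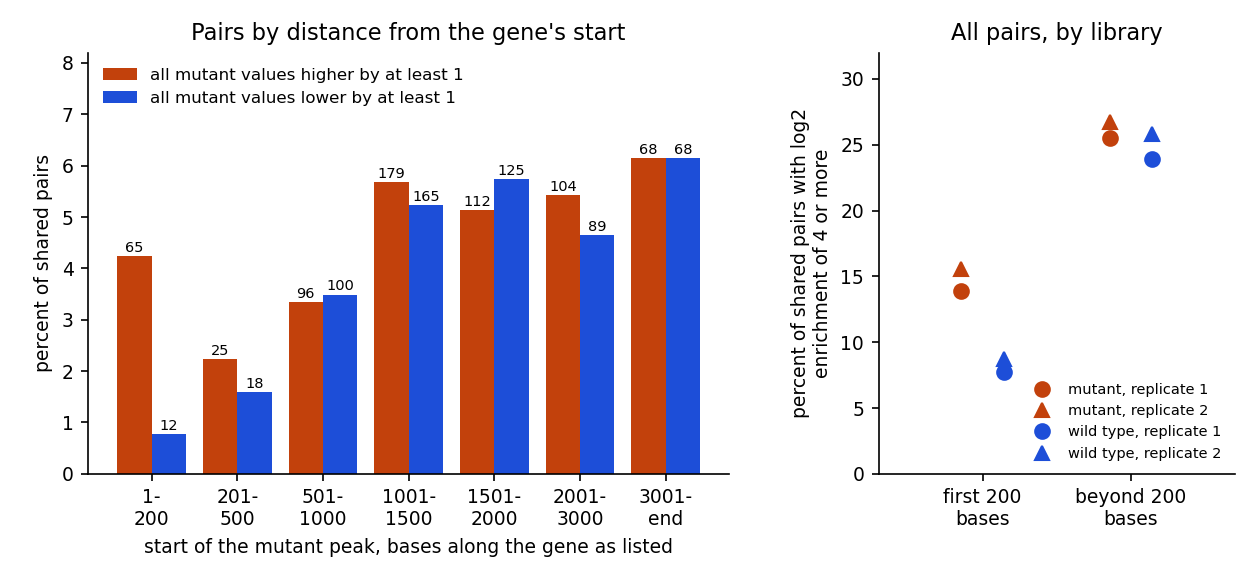
Left, the percent of shared pairs (vertical axis) with all mutant values higher by at least 1 (red) and lower by at least 1 (blue), by the first base of the mutant peak along the gene (horizontal axis), with the number of pairs above each bar. Right, the percent of shared pairs with a log2 enrichment of 4 or more in each library, for peaks that start in the first 200 bases and beyond. In the first 200 bases 65 pairs were higher and 12 lower, and both mutant libraries (13.9% and 15.6%) were above both wild-type libraries (7.76% and 8.74%).

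The 65 early pairs had a median mutant mean of 4.98 and a median wild-type mean of 1.49, both lower than the 6.59 and 2.36 of all 649. Their peak was the first of several in 48 genes and the only one in 17. The narrowest listed width, 100 bases, was that of the mutant peak in 2 of the 65 and of the wild-type peak in 11, and 21 had at least 80% of each peak overlapped; the part of the borders in these values was not tested beyond that count. Besides NF-YC9 and ULP1D, examples are these. FHY3 (AT3G22170), a transposase-derived factor of phytochrome A signalling, had 9.84 and 5.65 in the mutant and -3.60 and 1.89 in wild type at bases 85 to 244. Its later shared pairs met neither rule, with mean differences of 0.30, -2.82, -0.08 and -2.09, mutant minus wild type. GAI (AT1G14920), a DELLA repressor of gibberellin response, had 6.87 and 10.04 in the mutant and 3.06 and 4.44 in wild type at bases 78 to 234. FKF1 (AT1G68050), a blue-light receptor that promotes flowering in long days, had 5.20 and 4.43 in the mutant and 0.38 and 2.12 in wild type at bases 25 to 186. CYP71B11 (AT5G25120), a cytochrome P450 gene, had 10.88 and 8.43 in the mutant and 1.93 and 3.82 in wild type. All of these kept a gap above 2. CDC20.1 and CDC20.2, activators of the anaphase-promoting complex, were also among the 65, but they are near-identical neighbours and their peaks are uncertain.

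Peak borders also differed between the directions. The median width of the 649 pairs was 157 bases in both lists. The narrowest width listed, 100 bases, was that of the mutant peak in 8.63% and of the wild-type peak in 11.7%, against 8.97% and 7.33% of all pairs. Where the mutant was lower, it was that of the mutant peak in 14.0% and of the wild-type peak in 3.12%. The genotype with less enrichment thus had the narrowest peak more often in both directions. With at least 80% of each peak overlapped the shares were 3.62% for the mutant peak and 3.95% for the wild-type peak where the mutant was higher, and 2.67% and 1.91% where it was lower. At the far end, the THO1 peaks shared a single base, and those of PUM23, AT1G15530, AT2G05812 and AT1G77750 fewer than 10, so their values come from nearly separate stretches.

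Of the 642 genes, 213 had 284 further shared pairs that did not meet the rule, of which 143 (50.4%) had a higher mutant mean, and their median difference was 0.03. Both mutant values were above both wild-type values in 21 of the 284 and below both in 33. Leaving out pairs higher by 1 or more while keeping 9 pairs lower by 1 or more weights these counts towards lower values. In the 9965 genes with no pair higher by 1 or more, 46.6% of 12943 pairs had a higher mutant mean (median difference -0.09). Keeping 568 lower pairs weights that share the same way. In the 575 genes with a pair lower, 56.5% of 214 further pairs had a higher mutant mean (median difference 0.10). Keeping 9 higher pairs and no lower ones weights that share the other way. In the 642 genes, 283 of 1216 peaks of the mutant list and 262 of 1195 of the wild-type list had no partner. In the 9965 genes these counts were 4329 of 17272 and 3555 of 16498. The pair was the only peak of both lists in 232 of the 642 genes, and in 4098 of the 9965 genes. Further pairs are given for only some of the genes named here.

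In 9 genes 1 pair met the rule with the mutant higher and another with the mutant lower, and in 8 of them the higher one lay nearer the start of the gene. NF-YC9 had 0.84 and 1.79 in the mutant and 3.52 and 2.94 in wild type at its late peak, bases 1340 to 1494. ULP1D (AT1G60220), a SUMO protease gene, had 9.03 and 7.94 in the mutant and 1.75 and 2.05 in wild type at bases 135 to 291. At bases 1751 to 1893 it had 1.73 and 2.22 in the mutant and 4.85 and 3.32 in wild type. TFIIS (AT2G38560), an elongation factor of RNA polymerase II, had 10.02 and 7.33 in the mutant and -1.41 and 2.89 in wild type at bases 642 to 796. Its late peak, at bases 1441 to 1545, had 2.08 and 2.29 in the mutant and 4.40 and 3.79 in wild type. ULP1D and TFIIS overlap other genes in the annotation. NAGS1, which encodes the first enzyme of arginine synthesis, was the exception in order: its peak at bases 1906 to 2068 was higher (7.86 and 10.71 in the mutant, -1.38 and 4.07 in wild type) and that at bases 1431 to 1530 lower (2.82 and 3.11 in the mutant, 5.54 and 9.01 in wild type). XRI1, SCAMP3, AT3G14172, AT3G45050 and AT5G13520 are the remaining genes. The higher pairs of NF-YC9, ULP1D, SCAMP3, XRI1 and AT5G13520 are among the 65 early pairs, so their order is no separate observation. In genes of several peaks, pairs with the mutant lower were also the last peak more often (85.1%) than pairs with the mutant higher (69.1%).

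**Figure D4:**
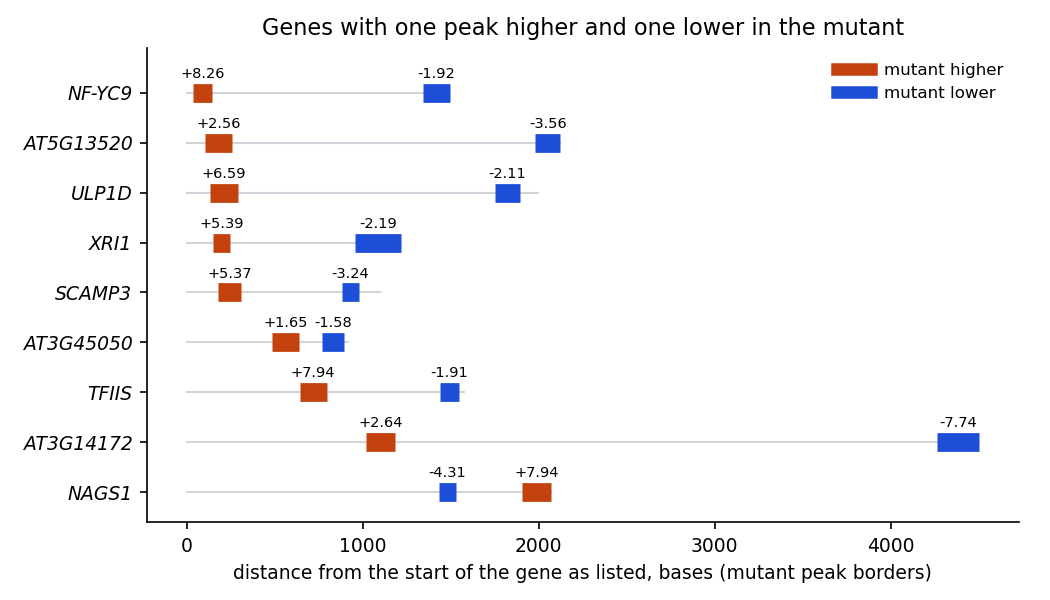
Positions of the mutant-list peaks (horizontal axis, bases from the start of the gene as listed) in the 9 genes with 1 pair of each direction, red where the mutant was higher and blue where it was lower, with the mean log2 difference, mutant minus wild type, above each. The grey line runs from the start of the gene to the end of the last peak of these pairs in either list. The red peak is nearer the start in 8 genes and farther only in NAGS1. The red peaks of NF-YC9, ULP1D, SCAMP3, XRI1 and AT5G13520 are among the 65 pairs of the first 200 bases.

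In 7 genes 2 pairs met the rule with the mutant higher. MGP3 (AT1G68990) and SCA3 (AT2G24120) encode phage-type RNA polymerases of mitochondria and plastids. MGP3 had 4.82 and 7.37 in the mutant and 2.84 and 2.03 in wild type at bases 533 to 684, and 7.19 and 7.85 in the mutant and 6.17 and 1.91 in wild type at bases 3521 to 3620. SCA3 had 8.41 and 5.38 in the mutant and 1.74 and 3.06 in wild type at bases 3501 to 3668, right after a peak with 3.88 and 2.90 in the mutant and 1.30 and 1.77 in wild type. PAL2 (AT3G53260), an enzyme at the entry to phenylpropanoid synthesis, had 4.38 and 3.04 in the mutant and 1.34 and 1.59 in wild type at bases 73 to 240. Its peak at bases 1050 to 1247 had 2.61 and 3.18 in the mutant and 1.46 and 0.59 in wild type. PRMT4B, an arginine methyltransferase gene, CER9, a ubiquitin ligase gene of cuticle and protein quality control, AT1G31220 and AT4G24840 are the others. The peaks of SCA3 and of AT1G31220 adjoin each other and are not separate observations.

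By chromosome, the pairs followed all pairs closely, from 14.6% on chromosome 4 to 29.1% on chromosome 1 (26.1% of all pairs), with 17.4% on chromosome 3 (20.0% of all). A single pair lay in a gene of the mitochondrial genome and none in one of the plastid genome. All 13876 pairs held only 7 and 23 such pairs. Of the 649, 644 lay in protein-coding genes (99.2%, against 98.4% of all pairs). In 223 (34.4%, against 33.9% of all pairs) the gene overlaps another gene. Not every such gene is marked where its values are given.

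Gene lists gave counts around the 4.68% of all pairs, and none was tested as a set. Over 22 lists of 1623 genes, 1009 shared pairs held 52 of the 649 (5.15%) and 37 with the mutant lower (3.67%). The median difference of the lists, mutant minus wild type, ran from -0.77 for 5 pairs of pentatricopeptide repeat genes to 0.55 for 16 pairs of nuclear factor Y genes, against -0.02 over all pairs. Photosystem and antenna genes, which mark green tissue, had a shared pair in 36 of 45 genes, and root markers in 4 of 12. In whole seedlings, a change of the mark within a cell type and a change in which cells supply the transcript cannot be told apart.

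Flowering-time genes had 5 of 37 pairs with the mutant higher (13.5%) and 1, in VRN1, with the mutant lower; their median difference was 0.31. FCA, FPA and FY act in the autonomous pathway that lowers the floral repressor FLC. FCA (AT4G16280) had 7.77 and 9.96 in the mutant and 3.88 and -1.48 in wild type at bases 1091 to 1217, and FPA (AT2G43410) had 8.73 and 8.27 in the mutant and 5.38 and 2.71 in wild type at bases 3028 to 3180. FY (AT5G13480), which encodes a subunit of the polyadenylation machinery, had 7.59 and 9.99 in the mutant and 3.79 and 1.53 in wild type at bases 2256 to 2435. Their 6 other pairs met neither rule and differed in both directions. The mean difference, mutant minus wild type, was 0.52, 3.06 and -3.37 in FPA at bases 401 to 521, 2871 to 2970 and 3375 to 3490, 1.81 in FCA at bases 3735 to 3890, and -1.21 and 0.26 in FY at bases 193 to 360 and 1888 to 2040. EMF1 (AT5G11530), a Polycomb-linked repressor of floral genes, had 8.74 and 9.52 in the mutant and 0.14 and 5.47 in wild type. FKF1, described with the early peaks, is the fifth gene. The wild-type replicates of FCA and EMF1 were over 5 apart, and FPA and FKF1 overlap other genes.

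MADS-box genes had 2 of 11 pairs with the mutant higher and 0 lower, with a median difference over the list of -0.06. Besides AGL16, SEP4 (AT2G03710), which acts in floral organ identity, had 6.33 and 9.46 in the mutant and 4.29 and 4.97 in wild type. Nuclear factor Y genes had 1 of 16 with the mutant higher and 1 lower, both in NF-YC9.

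Genes of the cell cycle and DNA replication had 6 of 43 pairs with the mutant higher (14.0%) and 3 lower, with a median difference of 0.18. PSF1 had the widest gap. MCM2 (AT1G44900), a subunit of the replicative helicase, had 7.72 and 8.34 in the mutant and 0.80 and 3.75 in wild type. Its other shared pair, at bases 135 to 280, met neither rule and had a mean difference of -2.97, mutant minus wild type. PRL (AT4G02060), the MCM7 subunit of the same helicase, had 8.60 and 5.69 in the mutant and 2.38 and 3.97 in wild type. CDKG1 (AT5G63370), a cyclin-dependent kinase gene, had 10.04 and 9.14 in the mutant and 2.81 and 1.37 in wild type, and its locus overlaps another gene. CYCD2;1, a D-type cyclin gene, and the kinase gene CDKE;1 are the others. The pairs with the mutant lower lay in PSF3, which encodes another subunit of the GINS complex, CDC27b and CDKC2.

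Small RNA and mRNA decay genes had 3 of 38 pairs with the mutant higher and 2 lower (UPF1 and UPF2, factors of nonsense-mediated decay), with a median difference of -0.15. RDR6 (AT3G49500), an RNA-dependent RNA polymerase, and SGS3 (AT5G23570), its partner, make trans-acting small interfering RNAs. RDR6 had 6.94 and 5.43 in the mutant and 0.47 and 2.75 in wild type at a peak with the same borders in both lists, bases 3681 to 3780. Its other shared pair, at bases 3366 to 3470, met neither rule and had a mean difference of -2.86, mutant minus wild type. SGS3 had 3.89 and 7.03 in the mutant and -0.33 and 2.51 in wild type. The replicates of both genes were over 1 apart in each genotype.

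Auxin genes had 3 of 70 pairs (4.29%), those of IAA26 and of the response factors ARF1 and ARF6. A further 2 pairs, in IAA18 and IAA27, met the rule with the mutant lower. ARF1 (AT1G59750) had 6.47 and 5.90 in the mutant and 3.16 and 2.58 in wild type, and ARF6 (AT1G30330) had 2.69 and 3.79 in the mutant and 1.11 and 1.44 in wild type. Other hormone genes had 2 of 31 (6.45%), GAI and the cytokinin receptor gene AHK3 (AT1G27320), with 4.35 and 5.06 in the mutant and 3.32 and 3.19 in wild type. These other hormone genes had 1 pair with the mutant lower, in EIN2. The single pair of 35 in light-signalling genes was that of FHY3, while CRY2 and PHYA met the rule with the mutant lower.

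Large families were at or under the background. Embryo-defective loci had 10 of 224 pairs (4.46%), chromatin and DNA methylation genes 5 of 121 (4.13%), ABC transporters 4 of 97 (4.12%), cytochrome P450 genes 3 of 80 (3.75%) and MYB, NAC and WRKY factors 2 of 51 (3.92%). With the mutant lower, these lists had 8, 5, 3, 4 and 1 pairs in the same order. DML1 (AT2G36490), known as ROS1, a DNA demethylase, had 4.17 and 7.22 in the mutant and 0.51 and 1.69 in wild type. Its other shared pairs met neither rule, with mean differences of -2.96, -1.85 and 2.03, mutant minus wild type. SUVH3, SUVR2, CHR19 and HDA05 are the other chromatin genes. CYP711A1 (AT2G26170), known as MAX1, an enzyme of strigolactone synthesis, had 6.72 and 8.59 in the mutant and 0.16 and 2.24 in wild type. ABCF4 (AT3G54540) had 5.64 and 5.63 in the mutant and 1.96 and 2.45 in wild type. Of the embryo-defective loci, RFC3 (AT1G77470), a subunit of the clamp loader of DNA replication, had 6.79 and 7.23 in the mutant and 0.35 and 2.58 in wild type. SURF1 (AT3G17910), an assembly factor of cytochrome c oxidase, had 9.25 and 6.65 in the mutant and 2.98 and 2.64 in wild type. WRKY19 and NAC1 are the 2 factors. Replicates of ABCF4 were within 1 of each other in both genotypes, and those of the other 4 genes were over 1 apart in at least 1 genotype.

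Calcium-dependent protein kinases had 2 of 24 pairs (8.33%), CPK13 and CPK32, and U-box ubiquitin ligases 1 of 11 (9.09%), PUB45 (AT1G27910), with 11.43 and 9.10 in the mutant and 5.08 and 0.95 in wild type. Ribosomal protein genes had 1 of 51 (1.96%), AT1G77750, with 9.38 and 3.81 in the mutant and 2.64 and 2.66 in wild type, from peaks that overlap by 7 bases. Reference transcripts, used as stable controls in expression studies, had 1 of 17 (5.88%), SAND (AT2G28390), with 6.64 and 5.82 in the mutant and 2.61 and 2.47 in wild type. Its mean difference, 3.69, was near the median of 3.83 of all 649 pairs. With the mutant lower, ribosomal protein genes had 3 pairs, in RPS14, RPS2 and RPS19. The kinase, U-box and reference lists had none.

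There was no pair with all mutant values higher in 5 lists. These were the m6A writers, erasers and readers (25 pairs, median difference 0.28), the clock (11 pairs, -0.11), photosystem and antenna genes (42 pairs, 0.11), pentatricopeptide repeat genes (5 pairs) and root markers (5 pairs, -0.32). The m6A list had 1 pair with all mutant values lower, in VIR, and the clock list 1, in LNK2. In ALKBH10B itself (AT4G02940) the shared peak had 1.61 and 3.44 in the mutant and 1.37 and 1.00 in wild type. Its gap was 0.24. FT (AT1G65480), the signal that moves from leaves to the shoot tip to start flowering, was listed with values of 5.43 and 0.00 in the mutant and not in wild type, and so formed no pair.

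**Figure D5:**
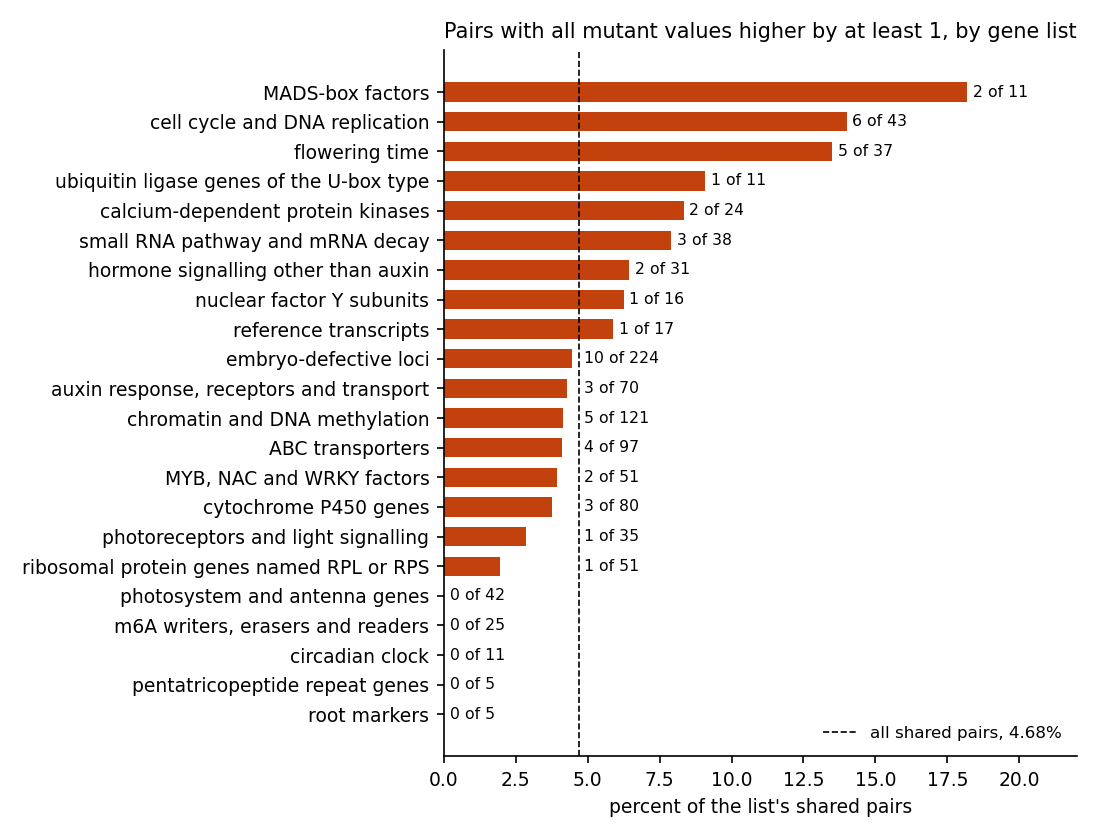
Percent of each list's shared pairs (horizontal axis) with all mutant values higher by at least 1, with the count beside each bar. The dashed line marks the 4.68% of all shared pairs. Lists with the highest shares rest on 2 to 6 pairs, and the list with the most pairs, embryo-defective loci with 10 of 224, stands at 4.46%.

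Other genes were grouped only after the pairs had been seen, so their counts say nothing about how often such genes occur. All 3 group VII ethylene response factors with a shared pair, the oxygen-regulated activators of low-oxygen genes, were among the 642 genes. RAP2.2 (AT3G14230) had 4.75 and 5.13 in the mutant and 1.20 and 2.76 in wild type at bases 9 to 171, and RAP2.3 (AT3G16770) had 4.90 and 4.41 in the mutant and 3.36 and 0.35 in wild type at bases 849 to 1003. RAP2.12 (AT1G53910) had a mutant mean of 3.46 ± 0.44 and a wild-type mean of 1.18 ± 0.35 (SD, n = 2) at bases 54 to 208. Both subunits of methylcrotonyl-CoA carboxylase, an enzyme of leucine breakdown, were present: MCCA (AT1G03090) had 5.02 and 9.39 in the mutant and 2.34 and 3.11 in wild type, and MCCB (AT4G34030) had 3.03 and 4.09 in the mutant and 1.60 and 1.99 in wild type. Purine synthesis contributed PUR2, PUR4 and PUR5, with mutant means of 5.08 ± 1.10, 4.84 ± 1.11 and 7.65 ± 4.14 against wild-type means of 2.96 ± 0.28, 0.74 ± 0.96 and 2.04 ± 1.21 (SD, n = 2). The other shared pairs of PUR2 and PUR4 met neither rule, with mean differences of 0.92 and -2.38, mutant minus wild type.

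Genes of immunity were also grouped afterwards. FLS2 (AT5G46330), the receptor of bacterial flagellin, had 5.66 and 9.04 in the mutant and 4.29 and 3.04 in wild type. LYM1 (AT1G21880), a receptor of bacterial peptidoglycan, had 5.48 and 10.80 in the mutant and 2.01 and 3.01 in wild type, and MEKK1 (AT4G08500), a kinase early in the defence cascade, had 7.30 and 9.35 in the mutant and 3.17 and 5.97 in wild type. Genes of salicylic acid were present too. EDS5 (AT4G39030), which exports its precursor from plastids, had 7.54 and 12.61 in the mutant and 2.72 and 4.38 in wild type, and DMR6 (AT5G24530), which hydroxylates salicylic acid, had 6.74 and 6.87 in the mutant and 2.40 and 1.04 in wild type. The replicates of LYM1 and EDS5 were over 5 apart in the mutant. RIN2 and SGT1B, close relatives of RIN3 and SGT1A in the set, met the rule with the mutant lower.

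A further group chosen afterwards binds or processes RNA. La1 (AT4G32720), which binds new RNA polymerase III transcripts, had 9.97 and 8.14 in the mutant and 3.02 and 3.84 in wild type, and its relative La2 (AT1G79880) had 4.69 and 4.38 in the mutant and 3.33 and 1.63 in wild type. RRP4 (AT1G03360) and RRP41 (AT3G61620), subunits of the RNA exosome, had mutant means of 8.46 ± 2.21 and 8.22 ± 1.07 and wild-type means of 2.13 ± 1.37 and 3.20 ± 0.97 (SD, n = 2). CER7, another exosome subunit gene, met the rule with the mutant lower.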

How the data were processed

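Fragments of poly(A) RNA bound by an m6A antibody were sequenced beside input, per the labels' protocols. The authors deposited 1 peak list per genotype with, per the file headers, borders in bases along each gene (whole numbers, unit other) and a log2 enrichment per replicate. The genome build TAIR10 and the tools edgeR and TopHat2 2.0.14 are named, without a role, per the submitters' processing notes. Not given in the sources used here are the peak caller and its thresholds, the formula and scaling of the enrichment, the use of strand and whether positions count introns. Scaling of the libraries, if done, would have removed any shift common to all peaks. The headers name 3 replicates. For the third, 2 columns (1 in each list) had no matching sample and were left out, so a peak may have been listed partly on it. No counts were used, and the depth is unknown. Where replicates are called biological, nothing further says how they were grown, so p-values measure the spread between these libraries.

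Peaks were paired as described. In 5 cases a tie in overlap was dropped. The deposited log2 values were used unchanged. Limma 3.58.1 (R 4.3.3) compared genotypes over all pairs with no replicate block, and the fit was tested on simulated data. Replicate differences of the 2 genotypes were hardly correlated (0.0068 over 13876 pairs). This cannot show whether libraries of the same number were grown or processed together. Symbols, gene types and gene overlaps came from a RefSeq table of TAIR10.1. It held 14192 of the 14304 listed genes and a symbol for 6677. Its coordinates were used only to find genes that overlap another gene. Other tools were pandas 2.3.3, numpy 2.4.6 and scipy 1.17.1 in Python 3.11.15, with matplotlib 3.10.9 for plots.

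The pairs, the gene lists and the rule for named genes were chosen with earlier results of these data known. Named were, among genes with an entry in the table's symbol column, the 12 widest gaps, the 8 closest replicates, the 6 widest gaps with at least 80% of each peak overlapped, up to 4 pairs per list by gap and genes with 2 pairs. Added were the 4 pairs nearest each side of the threshold, the 4 highest wild-type and the 4 lowest mutant means, ALKBH10B and FT. Some are named without values, and some are not reported here. Genes of groups noticed afterwards, other early peaks and the peaks with little overlap were chosen after their values were seen. Alternatives were other overlaps, gaps of 0 and 2, centring, leaving out overlapping genes, low values or each replicate, a replicate block and, for early peaks, other borders.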

Additional observations from a re-analysis of the deposited data

How the results depend on the processing

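The number of pairs with all mutant values higher, and with all lower, was 649 and 577. With overlap of at least 50% of the shorter peak they were 595 and 538, with each replicate centred on its median 679 and 523, and with all 4 values above 0 they were 579 and 493. They fell to 304 and 262 with at least 80% of each peak overlapped, to 426 and 376 without genes that overlap another gene, and to 288 and 193 with a gap of 2, and reached 1904 and 2085 with a gap of 0. These moves follow from fewer pairs or another threshold. Leaving out each replicate in turn gave 1771 to 2478 higher and 1785 to 2517 lower pairs, since 3 values meet the rule more easily than 4. More pairs were lower than higher without mutant replicate 1 (2478 higher, 2517 lower), without wild-type replicate 1 (1771 higher, 1974 lower) and with a gap of 0. The share of pairs with the mutant higher was 4.63% to 5.14% under the other overlaps, centring and filters. Over all results and alternatives, counts by gene list included, 217 values stayed within the limit set for them (1.5 times for a count) and 138 moved further. Limma called 0 pairs under every alternative run, with the smallest adjusted p between 0.453 and 1. No alternative here can place an enrichment below the authors' listing threshold.

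A fit with a replicate block also called 0 pairs, with 568 at an unadjusted p under 0.05, against 491 without the block. Only 2 pairs of replicate numbers exist, and their correlation of 0.0068 cannot show whether the libraries were paired.

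Chosen after the data had been seen, keeping tied pairs gave 649 and 577, and leaving out the first 200 bases gave 584 and 565. In the first 200 bases, pairs with the mutant higher and lower numbered 241 and 111 without mutant replicate 2, 195 and 124 without wild-type replicate 1, and 205 and 98 without wild-type replicate 2. With a gap of 2 they were 21 and 6.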
